A study of Sus scrofa with 9 samples.

Results

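The proteasome genes of pig coronary arterial endothelial cells were compared among cells at passage 1, cells at passage 4 and cells that had regrown on the denuded vessel wall. A gene was taken as a member if an array probe set carried its symbol alone and the symbol was of the PSMA, PSMB, PSMC, PSMD, PSME, PSMF or PSMG series. PSMB8, PSMB9, PSMB10, PSME1 and PSME2, which belong to the inducible immunoproteasome and its activator, were left out. This gave 36 genes, with 42 probe sets, of the 6765 genes that had a probe set of 1 symbol. Each gene was represented by its brightest probe set, and all 36 passed the filter on dim probe sets and were tested. PSMA8, PSMB11, PSMC4, PSMD7, PSMD9, PSMG2 and PSMG4 were not analysed here.

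Total RNA of 9 samples was hybridised to Affymetrix porcine arrays, 1 array per sample and 3 arrays per group. Passage 1 cells were the controls, kept in primary culture for a week. Passage 4 cells came from weekly passaging and are the senescent cells of the labels. Regenerated cells had grown back in the animal after the endothelium was removed, were scraped off, and were cultured with no further passage. No genetic change or drug is named for any group, and all cells were collected in the basal state. The labelling reaction took 1 ug of RNA for passage 1 and passage 4 cells and 0.5 to 1 ug for regenerated cells. In comparisons with regenerated cells, RNA input and group therefore cannot be told apart. Whether arrays of 1 group stand for different animals or cultures is not stated, so the p-values rest on the array-to-array spread alone, and that spread may be technical.

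The proteasome degrades proteins that carry ubiquitin chains. Its barrel, the 20S core, stacks outer rings of alpha subunits, which gate the entrance, on inner rings of beta subunits, some of which cut peptide bonds. The 19S regulatory particle caps the barrel: a base with a ring of ATPases unfolds the substrate and pushes it in, and a lid removes the ubiquitin. Activators and an inhibitor bind the core in place of the cap, and dedicated chaperones assemble the rings. Loss of proteasome activity has been linked to replicative senescence in cultured cells.

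The deposited values are MAS5 signals on a linear scale, and differences are given on the log2(signal + 16) scale. Arrays had median signals between 86.5 and 109 and the same trimmed mean. Probe sets for bacterial RNA added before labelling were used to divide the arrays into 2 kinds, called kinds of labelling here. The cut was placed at the largest gap in the 5' minus 3' signal difference of these probe sets, which gives 2 kinds in any data. The division is not taken from the sample labels. Passage 1 array 1 and the 3 passage 4 arrays are of one kind, with a 5' minus 3' signal difference of -2.41 to -1.92 (log2). Passage 1 arrays 2 and 3 and the 3 regenerated arrays are of the other, at -5.31 to -4.37. Within each kind, only passage 1 can be set against another group. The endothelial markers PECAM1 (5520 to 9079) and CDH5 (8524 to 11246) were bright on every array, whereas the probe sets of VWF (22.8 to 52.1) and KDR (0.798 to 23.6) were below the filter. The 12 measured endothelial markers summed to 24724 to 30180 at passage 1, 24262 to 25339 at passage 4 and 23102 to 33680 in regenerated cells. Of the 10 tested, NOS3 fell at passage 4 (-0.97, adjusted p = 0.045, limma). In regenerated cells CLDN5 fell (-1.62, adjusted p = 0.0134) and ENG rose (1.92, adjusted p = 0.0153, limma). These are 10% and 20% of the 10, where 4.79% and 5.49% of all tested probe sets passed the threshold. The 6 measured fibroblast markers summed to 278 to 348 at passage 1 and 498 to 639 at passage 4. In regenerated cells they summed to 1270 to 2139. There 3 of 5 tested, THY1, FAP and LUM, rose (60%, where 2.98% of all tested probe sets did). COL1A2 and DCN had no such rise (0.08 and 0.23, adjusted p = 0.881 and 0.821, limma). FAP read 13.5 to 37.5 at passage 1 and 0.693 to 38.0 at passage 4. It passed the filter through its regenerated arrays, at 267 to 484. COL3A1 was below the filter and is not among the 5. The share of 60% thus depends on the filter, and no conclusion on the list is drawn from it. LUM ran from 30.1 to 1014 over the regenerated arrays. The 6 smooth muscle markers summed to 8653 to 24341, 7123 to 22191 and 20238 to 30627 in the same order. ACTA2 alone ran from 196 to 13189 within passage 1. Of the 4 tested, SMTN rose in regenerated cells (0.89, adjusted p = 0.0422, limma), and the others had no adjusted p under 0.05 against passage 1. CNN1 was lower at passage 4 than in regenerated cells (-2.53, adjusted p = 0.0325, limma). Each of these calls is 25% of the 4. Over all tested probe sets, 5.49% passed the threshold in regenerated cells against passage 1 and 12.5% between passage 4 and regenerated cells. The 6 leukocyte markers summed to 106 to 238, 63.7 to 117 and 71.9 to 158, with 0 tested because all were below the filter. The part of cell makeup in the results was not tested, and in bulk RNA fewer cells of a type and less RNA per cell cannot be told apart.

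Most proteasome genes did not pass the threshold between groups, and 5 of them fell in regenerated cells. These were PSMF1, PSMD10, PSMB3, PSMD4 and PSMA6, while 0 of 36 rose against passage 1. That is 13.9% of the members, where 5.49% of all 15299 tested probe sets passed the threshold of an adjusted p under 0.05 (limma, Benjamini-Hochberg over all tested probe sets) and 2.51% passed it with a lower value. At passage 4 against passage 1, PSMA6 alone fell and 0 rose, or 2.78% of the members against 4.79% of all tested probe sets and 2.08% in the lower direction. PSMC5, PSMD4 and PSMF1 were higher at passage 4 than in regenerated cells, or 8.33% of the members against 12.5% of all tested probe sets and 8.14% in the higher direction. The share in regenerated cells against passage 1 is above the background, and the others are near or below it. That count of 5 became 2 without regenerated array 2 or 3 or without the intensity trend. It became 3 without passage 1 array 2 or 3 or any passage 4 array, and 1 with only the 2 groups compared. The share of all tested probe sets past the threshold in those fits is not given here. Whether the share of the members stays above the background in them was therefore not tested. At an unadjusted p under 0.05 (limma), 10 members were lower and 0 higher in regenerated cells, 3 were lower and 0 higher at passage 4, and 7 were higher and 0 lower at passage 4 than in regenerated cells. The share of all tested probe sets at that level was not counted. These counts, and those at the same level for the gene lists below, therefore have no background beside them.

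**Figure D1:**
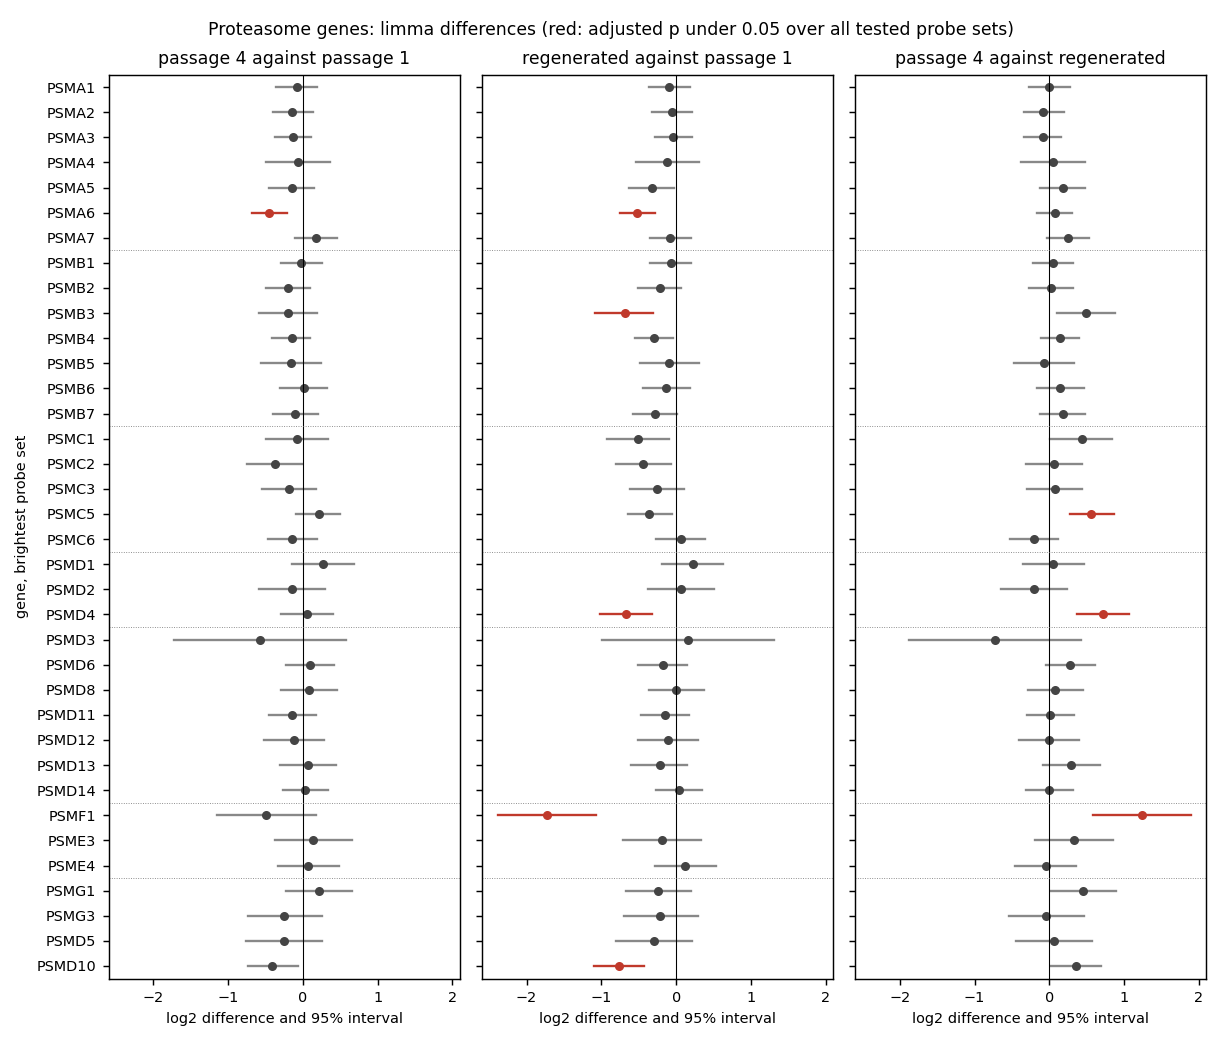
Log2 difference of each member (limma, points) with its 95% interval (lines) in the 3 comparisons, in red where the adjusted p is under 0.05; dotted lines divide the structural groups in the order alpha ring, beta ring, ATPases, other base subunits, lid, activators and inhibitor, chaperones. Most members lie close to 0, PSMF1 is the farthest from it in regenerated against passage 1 cells at -1.73, and PSMD3 has the widest intervals.

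The median difference of the members was -0.13 at passage 4 and -0.19 in regenerated cells, both against passage 1. Over all tested probe sets the medians were 0.04 and -0.01. In a band of 6803 probe sets that span the members' own range of mean level, a description chosen after the data were seen, they were 0.00 and -0.01. By sign alone, 24 members were lower and 12 higher at passage 4, and 30 were lower and 6 higher in regenerated cells. Passage 4 set against regenerated cells had a median of 0.06, with 26 members higher and 10 lower. With each array centred on its median, the members split 4 higher and 32 lower at passage 4, 6 and 30 in regenerated cells, and 15 and 21 between passage 4 and regenerated cells, so the last split turns with the scaling. That centring shifts the median of all tested probe sets to -0.12, -0.04 and -0.12 in the 3 comparisons. It also takes the share of all calls that are higher from 56.6% to 39.7% at passage 4 and from 65.2% to 52.3% between passage 4 and regenerated cells.

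The passage 1 arrays themselves differed by as much as these medians. Against the passage 1 mean, the median member stood at -0.16, -0.02 and 0.17 on passage 1 arrays 1, 2 and 3. It stood at -0.05, -0.16 and -0.07 at passage 4 and at -0.15, -0.27 and -0.09 in regenerated cells. Only 3 members were above the passage 1 mean on passage 1 array 1, against 34 on array 3, and between 4 and 14 on the passage 4 and regenerated arrays. The groups overlap in this measure. Without passage 1 array 3 the median in regenerated cells was -0.06 and without passage 1 array 1 it was -0.29; at passage 4 it was -0.03 without array 3. With labelling kind as a block the medians were 0.10 at passage 4, -0.29 in regenerated cells and 0.42 between passage 4 and regenerated cells. The direction at passage 4 therefore changes with that block. Of the passage 1 arrays only array 1 shares a kind with passage 4. With the block, passage 4 is thus set against that 1 array, and the value between passage 4 and regenerated cells also rests on it. In regenerated cells the block gives the same median as leaving out passage 1 array 1.

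**Figure D2:**
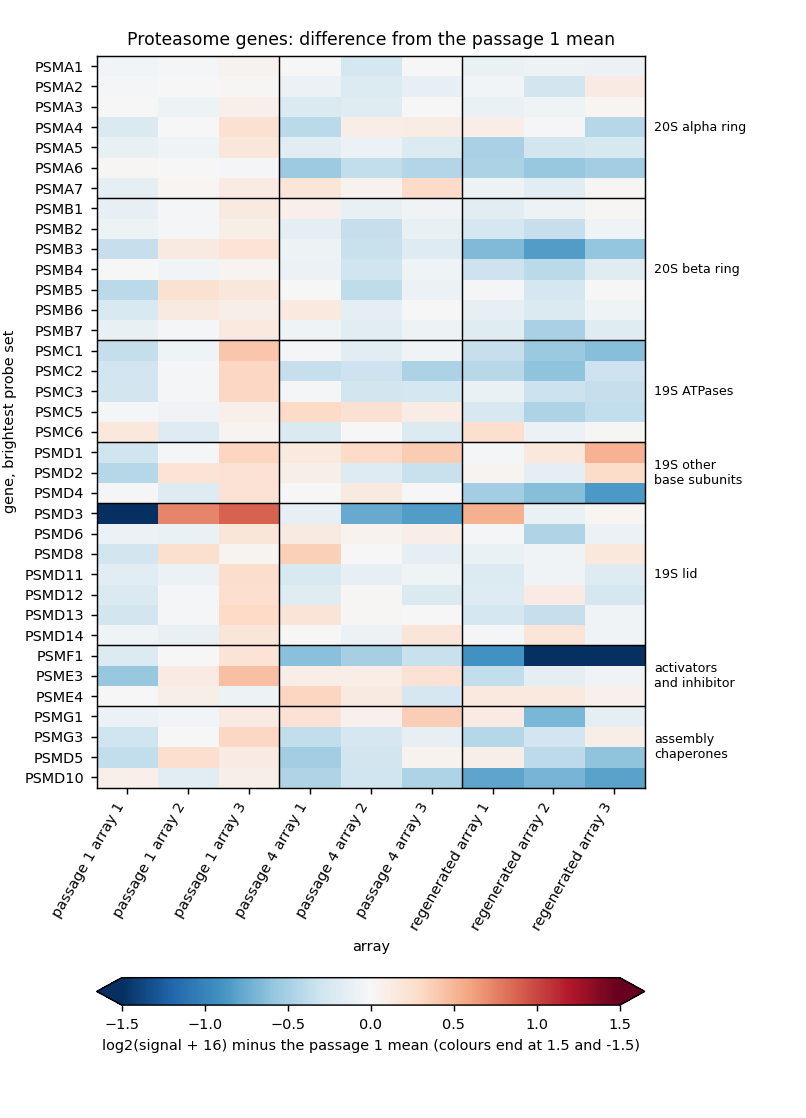
Difference of each member (rows, by structural group) from its passage 1 mean on each of the 9 arrays (columns), in log2(signal + 16), with colours ending at 1.5 and -1.5. PSMF1 and PSMD10 are blue on all regenerated arrays, PSMA6 is blue on all passage 4 and regenerated arrays, and passage 1 array 3 is mostly red.

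Some members had arrays that did not overlap between groups. Regenerated arrays lay wholly below the passage 1 arrays for 11 of 36 members (30.6%) and wholly above for 0, where 10.8% and 12.3% of all tested probe sets did so. Passage 4 arrays lay wholly below passage 1 for 7 members (19.4%) and above for 1, against 9.61% and 15.3% of all tested probe sets. Passage 4 arrays lay wholly above the regenerated arrays for 12 members (33.3%) and below for 1, against 20.1% and 16.1%. The median SD of a member within groups was 0.17, against 0.31 for all tested probe sets and 0.26 for the band of like mean level, and the median standard error of a difference was 0.16 against 0.27 and 0.21. PSMA6 had the lowest SD, at 0.06, and PSMD3 the highest, at 0.87.

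In the alpha ring, PSMA6 was the one gene of 7 to pass the threshold. It encodes a constitutive alpha subunit, and its signals were 12164, 12102 and 11796 at passage 1, 8259, 9299 and 8886 at passage 4, and 8652, 8126 and 8390 in regenerated cells. All passage 1 arrays were above all other arrays, and the passage 4 and regenerated arrays overlapped. PSMA6 fell by 0.45 at passage 4 (SE 0.11, adjusted p = 0.0367), or to 0.733 of the control. In regenerated cells it fell by 0.52 (SE 0.11, adjusted p = 0.0183), or to 0.698. The fall at passage 4 is close to the threshold and held in 10 of 20 alternatives: it was lost without the filter and without the intensity trend, leaving out any 1 of the 6 arrays took the adjusted p to between 0.059 and 0.138 with differences of -0.49 to -0.40, and with labelling kind as a block it was -0.47 (adjusted p = 0.241). In regenerated cells the adjusted p was 0.0458 with that block, and 0.0522 to 0.057 without passage 1 array 2 or regenerated array 2. That call held in 15 of 20 alternatives. It was also lost without the intensity trend (adjusted p = 0.0961), with only the 2 groups compared (0.0592) and with the replicate block (0.0505, limma).

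The other 6 alpha genes did not pass the threshold in any comparison. The ring as a whole had a median of -0.13 at passage 4 and -0.09 in regenerated cells. All 7 members had a difference below 0 in regenerated cells, the smallest being PSMA3 at -0.04 and PSMA2 at -0.06. PSMA7 was on the higher side at passage 4, with signals of 8325, 7563 and 8934 against 6613, 7446 and 7960, a difference of 0.17 (95% interval -0.10 to 0.45). PSMA5 was -0.33 in regenerated cells (95% interval -0.63 to -0.03), with an adjusted p of 0.179. Between passage 4 and regenerated cells, PSMA3 and PSMA2 were at -0.09 and -0.08.

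The catalytic genes of the beta ring showed no difference past the threshold. PSMB5, the chymotrypsin-like subunit, had signals of 4501, 7026 and 6731 at passage 1, 5924, 4589 and 5605 at passage 4 and 5898, 5027 and 5954 in regenerated cells. Its difference was -0.16 at passage 4 (95% interval -0.56 to 0.24) and -0.09 in regenerated cells (-0.49 to 0.31), and passage 1 array 1 was the lowest array. PSMB6, the caspase-like subunit, had 4705, 6059 and 5885, then 6130, 4996 and 5560, then 5067, 4736 and 5262. Its differences were 0.01 (-0.31 to 0.32) and -0.14 (-0.45 to 0.18), and all groups overlapped. PSMB7, the trypsin-like subunit, had 5113, 5397 and 6088, then 5282, 4906 and 5219, then 4852, 3933 and 4856. PSMB7 was -0.10 at passage 4 (-0.40 to 0.20). Its regenerated arrays were all below passage 1, at -0.29 (-0.58 to 0.01), with an adjusted p of 0.251.

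PSMB3, a beta subunit without catalytic activity, was the member of this ring that fell in regenerated cells. Its signals were 2184, 3042 and 3211 at passage 1, 2623, 2202 and 2422 at passage 4, and 1742, 1547 and 1855 in regenerated cells. The regenerated arrays were the 3 lowest, and passage 1 array 1 lay just below the lowest passage 4 array. PSMB3 fell by 0.69 against passage 1 (SE 0.18, adjusted p = 0.044), or to 0.619 of the control. It is the weakest of the 5 calls: it held in 7 of 20 alternatives, and without any 1 array other than passage 1 array 1 the adjusted p was 0.0593 to 0.149. Within the kind of labelling that regenerated cells share with passage 1 arrays 2 and 3, it was -0.86 (adjusted p = 0.0149). At passage 4 PSMB3 was -0.20 against passage 1 and 0.49 against regenerated cells (adjusted p = 0.601 and 0.092). The beta ring had a median of -0.15 at passage 4 and -0.22 in regenerated cells, again with 7 of 7 genes below 0 in the latter.

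**Figure D3:**
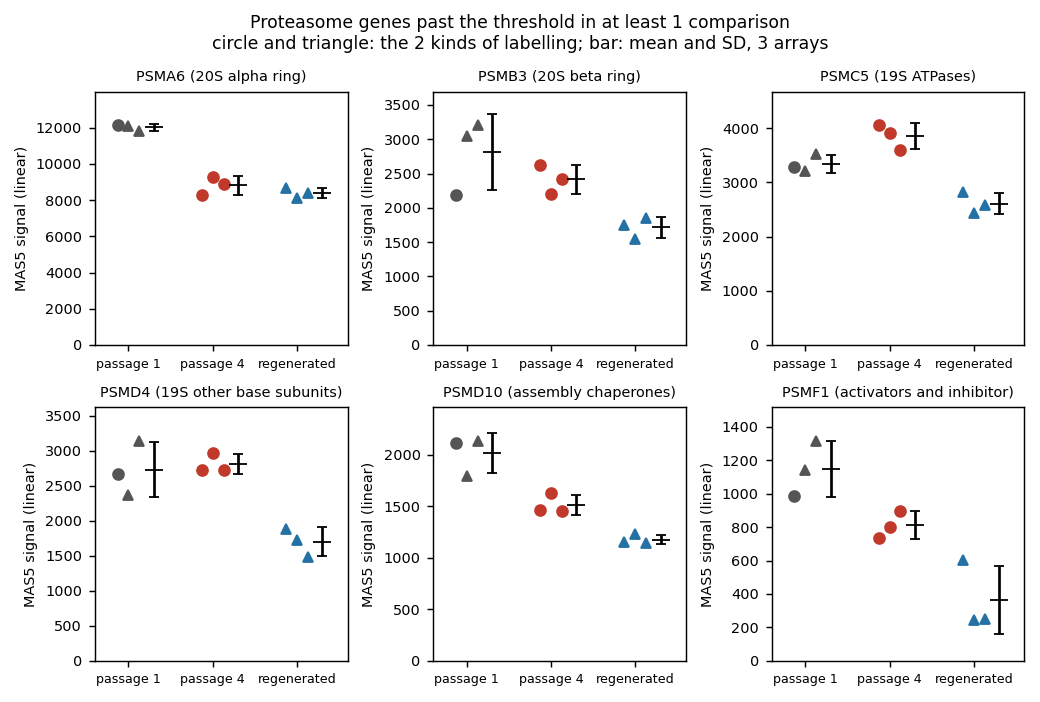
Signal (linear, axis from 0) of the 6 members past the threshold in at least 1 comparison, on each of 3 arrays per group; circles and triangles are the 2 kinds of labelling, and the bar gives the mean and SD of 3 arrays. Regenerated arrays are the lowest for PSMB3, PSMC5, PSMD4, PSMD10 and PSMF1, and for PSMA6 passage 4 lies as low as regenerated cells.

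Among the 19S ATPases, PSMC5 differed between passage 4 and regenerated cells. Its signals were 3279, 3213 and 3525 at passage 1, 4061, 3909 and 3593 at passage 4, and 2820, 2426 and 2572 in regenerated cells. The 3 groups did not overlap, with passage 1 in the middle. PSMC5 was 0.56 higher at passage 4 than in regenerated cells (SE 0.13, adjusted p = 0.0194), a ratio of 1.48. Neither group passed the threshold against passage 1, at 0.21 for passage 4 and -0.36 for regenerated cells (adjusted p = 0.458 and 0.145). The call was lost with median centring, without an intensity trend, and without any 1 of the passage 4 arrays or regenerated arrays 2 and 3 (adjusted p = 0.0511 to 0.076). With labelling kind as a block the difference was 0.60 with an adjusted p of 0.232.

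No other ATPase passed the threshold, although this group had the lowest median in regenerated cells among the structural groups of the core and cap, at -0.36. PSMC1 had signals of 2964, 3643 and 5069 at passage 1, 3734, 3372 and 3647 at passage 4 and 2994, 2584 and 2436 in regenerated cells. The 3 passage 1 arrays of PSMC1 were far apart, and its difference in regenerated cells was -0.51 (SE 0.19, adjusted p = 0.139). It was -0.69 without passage 1 array 1 (adjusted p = 0.0489), the same value as with labelling kind as a block (adjusted p = 0.0493). The brightest PSMC2 probe set was -0.38 at passage 4 and -0.44 in regenerated cells (adjusted p = 0.246 and 0.154), with all passage 4 and regenerated arrays below passage 1. PSMC6 was 0.06 in regenerated cells and -0.20 between passage 4 and regenerated cells.

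PSMD4, the ubiquitin receptor of the 19S base, fell in regenerated cells against both other groups. Its signals were 2665, 2372 and 3145 at passage 1, 2724, 2969 and 2724 at passage 4, and 1887, 1730 and 1486 in regenerated cells. The regenerated arrays were all below every other array, and passage 4 lay within the range of passage 1. PSMD4 fell by 0.67 against passage 1 (SE 0.16, adjusted p = 0.0349), or to 0.627, and was 0.72 higher at passage 4 than in regenerated cells (SE 0.16, adjusted p = 0.014). The difference of passage 4 from passage 1 was 0.05 (95% interval -0.30 to 0.40). Against passage 1 the call held in 9 of 20 alternatives and was lost without any 1 of 7 arrays, among them passage 1 arrays 1 and 3, all passage 4 arrays and regenerated arrays 2 and 3 (-0.69 to -0.57, adjusted p = 0.0511 to 0.123). With labelling kind as a block it was -0.69 (adjusted p = 0.051). Against passage 4 the call was lost without passage 4 array 2 or regenerated array 3 (0.63 to 0.68) and with the block (0.76, adjusted p = 0.213).

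The large scaffold subunits of the base did not follow PSMD4. PSMD2 had signals of 3077, 4789 and 4812, then 4400, 3608 and 3274, then 4276, 3732 and 5021. Its difference was -0.15 at passage 4, 0.06 in regenerated cells and -0.21 between them, all with overlapping arrays. PSMD1 had 3420, 4120 and 5281, then 4654, 5144 and 5483, then 4124, 4687 and 6069, and was 0.27 at passage 4 (95% interval -0.14 to 0.68) and 0.22 in regenerated cells (-0.19 to 0.63).

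In the lid, 0 of 7 genes passed the threshold in any comparison, and no gene had passage 4 or regenerated arrays that were clear of the passage 1 arrays. The count at an unadjusted p under 0.05 (limma) was also 0 in each comparison. The lid median was 0.03 at passage 4 and -0.11 in regenerated cells. PSMD14, the deubiquitinase of the lid, had signals of 4902, 4738 and 5840, then 5160, 4840 and 5840, then 5085, 5817 and 4935. Its differences were 0.03 (95% interval -0.27 to 0.34) and 0.04 (-0.27 to 0.34). PSMD6, PSMD8, PSMD11, PSMD12 and PSMD13 lay between -0.22 and 0.10 against passage 1 in both groups.

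PSMD3, a lid scaffold subunit, was the exception in spread. It had 501, 2634 and 2932 at passage 1, 1451, 926 and 872 at passage 4 and 2290, 1476 and 1613 in regenerated cells. Each array of the first kind of labelling was below each array of the other. Its differences of -0.57 at passage 4, 0.16 in regenerated cells and -0.73 between them (SE 0.53 each) did not pass the threshold. At passage 4 the difference was -1.38 without passage 1 array 1 (adjusted p = 0.0082) and 1.05 with labelling kind as a block (adjusted p = 0.183), so its direction depends on which passage 1 arrays are used.

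**Figure D4:**
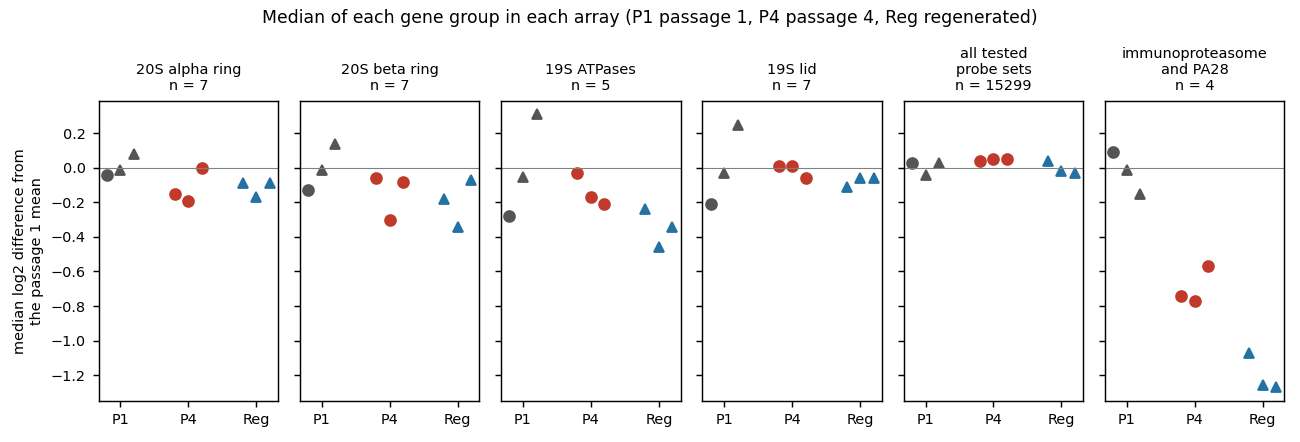
Median difference from the passage 1 mean (log2) over the genes of each structural group, all tested probe sets, and the 4 genes of the immunoproteasome and its activator, on each array; circles and triangles are the 2 kinds of labelling. In regenerated cells the ATPase medians run from -0.46 to -0.24 and the lid medians from -0.11 to -0.06; the last panel reaches -1.27.

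Set side by side, core, ATPases and lid had medians of -0.14, -0.14 and 0.03 at passage 4. With labelling kind as a block the passage 4 medians were -0.04 for the alpha ring, 0.10 for the beta ring, 0.09 for the ATPases and 0.18 for the lid, and with median centring -0.29, -0.31, -0.30 and -0.12. The direction of the beta ring, ATPase and lid medians at passage 4 therefore turns with one or the other setting. In regenerated cells the core, ATPases and lid were at -0.13, -0.36 and -0.11. There the alpha ring, beta ring, ATPases and lid were at -0.15, -0.29, -0.40 and -0.23 with the block, and at -0.05, -0.18, -0.28 and 0.01 without passage 1 array 3, which turns the lid. On each array, the ATPase difference from the lid was -0.07, -0.02 and 0.06 at passage 1, -0.04, -0.18 and -0.14 at passage 4, and -0.14, -0.40 and -0.28 in regenerated cells. The regenerated arrays lay below the passage 1 arrays in this measure and overlapped the passage 4 arrays. The core against the lid overlapped between regenerated cells (-0.04, -0.20 and -0.02) and passage 1 (0.11, 0.02 and -0.14), and so did the ATPases against the core at 0.20 to -0.17 in passage 1 and -0.09 to -0.26 in regenerated cells. The ATPase group holds 5 genes, and no test was run on these medians. All 14 core genes had a difference below 0 in regenerated cells, of which 2 fell (14.3%, where 2.51% of all tested probe sets did) and 6 had arrays wholly below passage 1 (42.9%, where 10.8% did). Of the 15 genes of the 19S particle, 10 were below 0, 1 fell (6.67%) and 3 had arrays wholly below passage 1.

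PSMF1, an inhibitor that binds the 20S core, had the largest difference of all members. Its signals were 987, 1142 and 1319 at passage 1, 733, 802 and 899 at passage 4, and 601, 244 and 248 in regenerated cells. The 3 groups did not overlap, and regenerated array 1 was well above the other regenerated arrays. PSMF1 fell by 1.73 in regenerated cells against passage 1 (SE 0.30, adjusted p = 0.00812), or to 0.301 of the control. This call held in all 20 alternatives, with differences of -2.14 to -1.26 and adjusted p from 0.000887 to 0.0462. It was also 1.24 higher at passage 4 than in regenerated cells (SE 0.30, adjusted p = 0.0209), which was lost without any 1 passage 4 array or regenerated array 2 or 3 (adjusted p = 0.0508 to 0.091), with labelling kind as a block (1.55, adjusted p = 0.184) and with the mean of both probe sets (0.80, adjusted p = 0.0514). At passage 4 against passage 1 it was -0.49 (adjusted p = 0.427).

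The activators did not pass the threshold. PSME3, the nuclear PA28 gamma activator, had signals of 778, 1270 and 1601, then 1252, 1252 and 1360, then 898, 1049 and 1122. Its difference was 0.14 at passage 4 and -0.19 in regenerated cells. PSME4, the PA200 activator, was 0.07 and 0.12, with signals of 694 to 1042 over all arrays.

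PSMD10, also called gankyrin, a chaperone of the ATPase ring that also binds CDK4 and MDM2, fell in regenerated cells. Its signals were 2118, 1790 and 2139 at passage 1, 1461, 1625 and 1453 at passage 4, and 1155, 1228 and 1146 in regenerated cells. The groups did not overlap, and passage 4 lay between the others. PSMD10 fell by 0.76 in regenerated cells (SE 0.15, adjusted p = 0.0157), or to 0.589 of the control, and held in 18 of 20 alternatives, including labelling kind as a block (-0.73, adjusted p = 0.0332). These alternatives overlap. Leaving out passage 1 array 1 gave nearly the same result as that block (-0.73, adjusted p = 0.0336, limma), and PSMD10 has only 1 probe set to average. The call was lost without regenerated array 3 (-0.75, adjusted p = 0.0632) and with only the 2 groups compared. At passage 4 it was -0.41 (95% interval -0.74 to -0.07), with an adjusted p of 0.161.

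The other assembly chaperones were not called. PSMG1, which helps to build the alpha ring, had signals of 2258, 2335 and 2611, then 2788, 2514 and 3099, then 2611, 1487 and 2159. It was 0.22 at passage 4, -0.24 in regenerated cells and 0.45 between them (adjusted p = 0.617, 0.532 and 0.159). PSMG3, another chaperone of the core, and PSMD5, a chaperone of the base, were -0.25 each at passage 4 and -0.21 and -0.30 in regenerated cells. The median of the 4 chaperones was -0.25 and -0.27. At passage 4 it was 0.09 with labelling kind as a block, which turns its direction, and -0.14 without passage 1 array 3.

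For 4 members several probe sets report on the same gene, and their values or calls did not always match. The brightest PSMD11 probe set had a difference of 0.01 between passage 4 and regenerated cells. Its other probe sets gave 2.53 and 2.03 (adjusted p = 0.00668 and 0.00803). The second read 1390, 363 and 702 at passage 1, 1249, 1424 and 1540 at passage 4, and 469, 169 and 149 in regenerated cells. In both dimmer probe sets, each array of the kind of labelling shared by passage 4 and passage 1 array 1 was above each array of the other kind, and the part of labelling in that difference was not tested. With the mean of all probe sets, PSMD11 was 1.52 (adjusted p = 0.00868). The second PSMF1 probe set, at 386, 425 and 577, then 297, 385 and 320, then 282, 276 and 217, was -0.79 in regenerated cells against passage 1 (adjusted p = 0.0665) and 0.35 between passage 4 and regenerated cells (adjusted p = 0.334). The regenerated arrays were again the lowest, but neither value passed the threshold. The dimmer PSMC2 probe sets were 0.22 and -0.23 in regenerated cells, and the dimmer PSMD1 probe set was 0.63 at passage 4 (adjusted p = 0.0702).

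**Figure D5:**
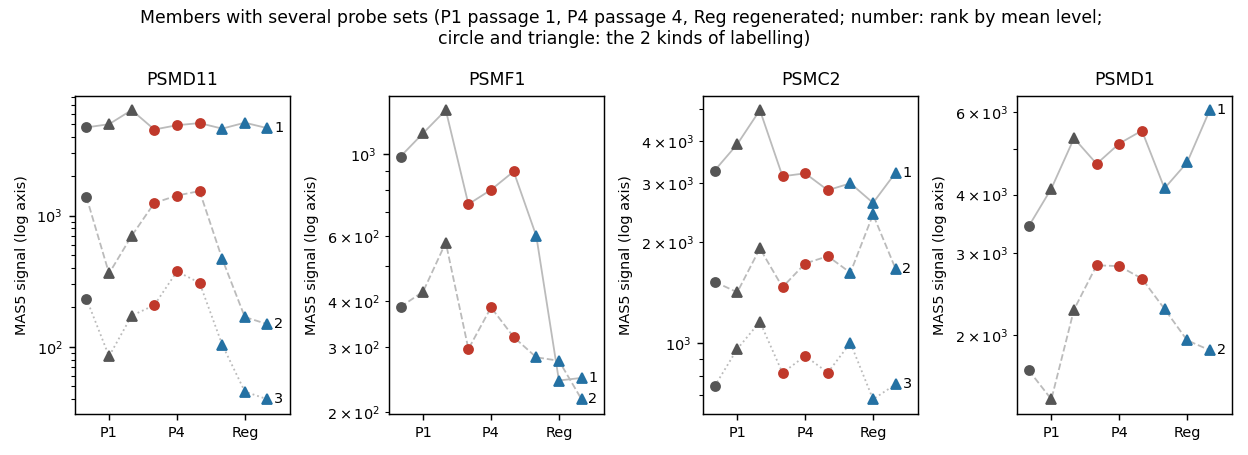
Signal (log axis) of every probe set of PSMD11, PSMF1, PSMC2 and PSMD1 on the 9 arrays; numbers give the rank by mean level, colours the groups, and circles and triangles the 2 kinds of labelling. Both dimmer PSMD11 probe sets vary with the kind of labelling while the first does not, and both PSMF1 probe sets are lowest in regenerated cells.

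The inducible counterparts of these genes are not members and are given for comparison. Of PSMB8, PSMB10, PSME1 and PSME2, 4 of 4 fell in regenerated cells (-2.07, -1.28, -1.17 and -1.15) and 2 of 4, PSME1 and PSME2, fell at passage 4 (-0.59 and -0.86). Over all tested probe sets, 2.51% fell in regenerated cells and 2.08% at passage 4 at the same threshold. How these calls depend on single arrays or on the kind of labelling is not given here. PSMB8 was -1.24 and PSMB10 -0.50 at passage 4, with adjusted p of 0.128 and 0.218.

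Genes that act around the proteasome were described in the same way. Of 7 tested proteasome factors outside the subunit series, 0 passed the threshold against passage 1 in either group (0 at passage 4 and 1 in regenerated cells at an unadjusted p under 0.05, limma). Between passage 4 and regenerated cells, PAAF1, which binds free ATPases, was 0.81 higher (adjusted p = 0.038) and ZFAND5, a ubiquitin-binding activator of the proteasome, was lower, at -0.63 (adjusted p = 0.0294). These are 28.6% of the 7, where 12.5% of all tested probe sets passed the threshold. Of 17 tested genes for ubiquitin and its conjugating enzymes, UBE2C, the partner of the anaphase-promoting complex in mitosis, rose at passage 4, which makes 5.88% of the list against 4.79% of all tested probe sets. Its signals were 1627 to 2326 at passage 1, 3294 to 3598 at passage 4 and 1716 to 2292 in regenerated cells, a difference of 0.80 at passage 4 (SE 0.18, adjusted p = 0.0283). The passage 4 arrays were clear of both other groups, and against regenerated cells the difference was 0.76 (adjusted p = 0.0167). In regenerated cells 0 of the 17 passed the threshold (limma), and 0 had an unadjusted p under 0.05. The ubiquitin genes UBB and RPS27A were 0.12 and 0.18 at passage 4 and 0.10 and 0.13 in regenerated cells. Of 7 tested shuttle receptors and cofactors of the p97 ATPase, 0 passed the threshold in any comparison (limma; at an unadjusted p under 0.05, 1 in regenerated against passage 1 cells and 0 in the others), and VCP, which encodes p97 itself, was -0.03 and 0.06.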

How the data were processed

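The deposited file holds linear intensities per probe set, which the submitters' processing notes call MAS5 signals, without a version or scaling target. The trimmed mean was 500.1 on every array, so no further normalization was applied. Of 24123 probe sets, 124 controls were left out, and 15299 with at least 3 of 9 arrays above the array's own 40th percentile were tested. Values were log2(signal + 16), which understates changes of dim genes. All 9 arrays were fitted in limma 3.58.1 (R 4.3.3; lmFit, eBayes with an intensity trend; 6 residual degrees of freedom), two-sided, with Benjamini-Hochberg adjustment over tested probe sets. The script was tested on simulated data. The number of arrays limits the precision.

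Members and lists were chosen with earlier results of these data known, and so was the division by labelling. Symbols came from the platform annotation; Entrez identifiers of all 36 members were in the RefSeq table of Sscrofa11.1 and 0 symbols differed. Coordinates and sequences were not used here. Members were named if past the threshold, among the 5 largest differences either way, or of a set of functional subunits. What the labels' replicate numbers share between groups is not stated, and the arrays were fitted as unpaired. Same-numbered deviations from the group means correlated at -0.138 to 0.186, above 0.1 in 1 of 9 pairs. With few arrays behind each group mean, such correlations cannot exclude a pairing.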

Additional observations from a re-analysis of the deposited data

Results flagged for a closer look

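The change at passage 4 and the change in regenerated cells, each against passage 1, differed for 3 members, as tested by passage 4 against regenerated cells, in which the shared control cancels. The difference was 0.56 on the log2 scale for PSMC5 (adjusted p = 0.0194), 0.72 for PSMD4 (adjusted p = 0.014) and 1.24 for PSMF1 (adjusted p = 0.0209). In each of them all 3 passage 4 arrays were above all 3 regenerated arrays, as for 20.1% of all tested probe sets. The 3 members were picked by this same comparison, so that adds no support. Passage 4 and regenerated arrays are of different kinds of labelling, and with that division as a block the adjusted p was 0.232, 0.213 and 0.184. With the mean of both PSMF1 probe sets the difference was 0.80 (adjusted p = 0.0514).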

How the results depend on the processing

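Over the 20 alternatives and 2160 values, 0 called member values turned sign, 59 calls were lost and 5 gained. Only values called in the main fit could lose a call, so the 59 are not a share of the 2160. In regenerated cells against passage 1, the PSMF1 call was lost in 0 of 20 and the PSMB3 call in 13 of 20. The alternatives are not independent of each other. For a member with 1 probe set, the mean of all probe sets uses the same values as the main fit. At passage 4 the 1 call was lost (0) without the filter, without the intensity trend, with the replicate block and with labelling kind as a block, and leaving out 1 array gave 0 to 1. In regenerated cells the 5 calls became 2 without the intensity trend, 1 with only the 2 groups compared (fewer arrays), 2 with the replicate block and 2 to 5 without 1 array: 3 without passage 1 array 2 or 3 or any passage 4 array, and 2 without regenerated array 2 or 3. Between passage 4 and regenerated cells the 3 calls became 0 with labelling kind as a block and 0 to 4 without 1 array: 0 without passage 4 array 2 or regenerated array 3, 1 without passage 4 array 1 or 3 or regenerated array 2. There the replicate block left 3. Whether the replicate numbers pair the arrays is not known (2 of 9 arrays correlated best with their own number), so that block is given as an alternative. The median of the members moved to -0.29 (median centring) and 0.10 (labelling kind) at passage 4, and to -0.06 and 0.42 between passage 4 and regenerated cells; in regenerated cells it ran from -0.29 to -0.06 without 1 array. The causes of these moves were not tested. With 3 arrays a group, the median standard error of a member's difference was 0.16. Differences as large as -0.51 (PSMC1 in regenerated cells) did not pass the threshold, nor did -0.73 for the widely spread PSMD3 between passage 4 and regenerated cells. Small shifts were therefore not detectable.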
